A study of Homo sapiens with 6 samples.

Results

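The genes described here are 41 genes of mitosis, chosen by name for their known roles in mitotic entry, the spindle, the mitotic kinesins, chromosome structure and cytokinesis. They and the lists below were chosen with earlier results of these data known, so shares set against all genes are descriptions only. All 41 had a value of their own in the array table, among 21921 genes in all. They are the mitotic cyclins with their kinase CDK1 and its activators (8 genes, with the ubiquitin enzyme UBE2C), spindle pole and microtubule proteins (9), kinesins (12), cytokinesis proteins (4), and condensin and mitotic chromosome proteins (8). Cells make most of these transcripts late in the cell cycle. The genes are kept silent in quiescent cells and early in the cycle by the DREAM complex, and are switched on in G2 and mitosis by B-MYB and FOXM1, through promoter elements that include the cell cycle genes homology region (CHR) and CCAAT boxes bound by NF-Y. Active cyclin B-CDK1 then drives entry into mitosis, kinesins build the spindle and move chromosomes, condensin compacts the chromosomes, and the anaphase-promoting complex ends the process by marking cyclins for destruction.

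The values come from INA-6, an established human multiple myeloma cell line that was grown with interleukin-6. In 3 cultures the cells received UNC1999, an inhibitor of the histone methyltransferase EZH2, and in 3 they received UNC2400, the inactive control compound. Both compounds were given at 1 μM for 120 h, with medium and compound renewed at 72 h, after seeding at 100000 cells per mL. Each of the 3 cultures of a group is labelled a biological replicate. The labels name UNC2400 as the control, the text of the study names DMSO, and the labels were followed. A single cell line limits the comparison as a model, and untreated cells were not analysed here.

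Each value is a log2 expression value as the authors deposited it, so a difference of 1 is a doubling. The median value was between 4.83 and 4.86 on all 6 arrays, and arrays correlated at 0.9943 to 0.9977 within a group and at 0.9855 to 0.988 between groups (Pearson r over all probe sets). The target of the compound, EZH2, had values of 7.95, 8.03 and 8.14 with UNC1999, against 7.87, 7.89 and 7.79 with UNC2400, a difference of 0.19 that did not pass the test (limma, adjusted p = 0.099). An inhibitor acts on the enzyme, and this transcript was not used to check the labels. Of 9 plasma cell markers measured, 8 were lower with UNC1999, among them the transcription factor genes IRF4 (a difference of -1.28), XBP1 (-1.35) and PRDM1 (-0.79), and 1, CD38, was higher. In all, their mean level per array was 7.43 to 7.64 with UNC1999 and 8.32 to 8.42 with UNC2400. Of 25 markers of B, T, myeloid, stromal and erythroid cells, 1 (CD3E) was higher with UNC1999 and 0 were lower. The mean level of the myeloid list was 4.87 to 4.93 with UNC1999 and 4.85 to 4.91 with UNC2400, close to the array median. Not every list lay there. The erythroid list was at 5.295 to 5.335 with UNC1999 and 5.326 to 5.370 with UNC2400, and the mature B cell list at 5.01 to 5.03 and 4.96 to 4.98. The part of the plasma cell markers in the differences below was not tested.

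The mitotic genes were higher in cells that received UNC1999. Of the 41 genes, 25 rose, 0 fell and 16 did not pass the test (limma on all probe sets, Benjamini-Hochberg adjusted p under 0.05), that is 61.0% of them higher, where 9.16% of all 21921 genes were higher and 7.32% were lower. All 41 genes were brighter than the median probe set, as were only 15352 of all genes. With dim probe sets left out, 29 of the 41 were higher and 0 lower, against 2133 higher and 1772 lower among the 15352. The estimate was positive for 40 genes and negative for 1, KIF20B, where it was positive for 13792 of all 21921 genes. The median log2 difference was 0.29, against 0.01 over all genes, and the rises were of modest size, between 1.11-fold and 1.54-fold. All 3 UNC1999 arrays lay above all 3 UNC2400 arrays for 34 of the 41 genes, as they did for 24.1% of all genes, and 0 of the 41 were the other way round, against 13.7% of all genes. With the stricter limits that the methods of the study name (p no higher than 0.02 before adjustment, and a 1.5-fold difference or more), only KIFC1 and HMGB2 were called, 2 of 41, where 0.908% of all genes were called higher. Leaving out UNC1999 replicate 2 reduced the 25 rises to 16, with 0 falls. These are arrays of whole cultures, in which more cells in G2 and mitosis and more transcript per cell cannot be told apart.

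**Figure D1:**
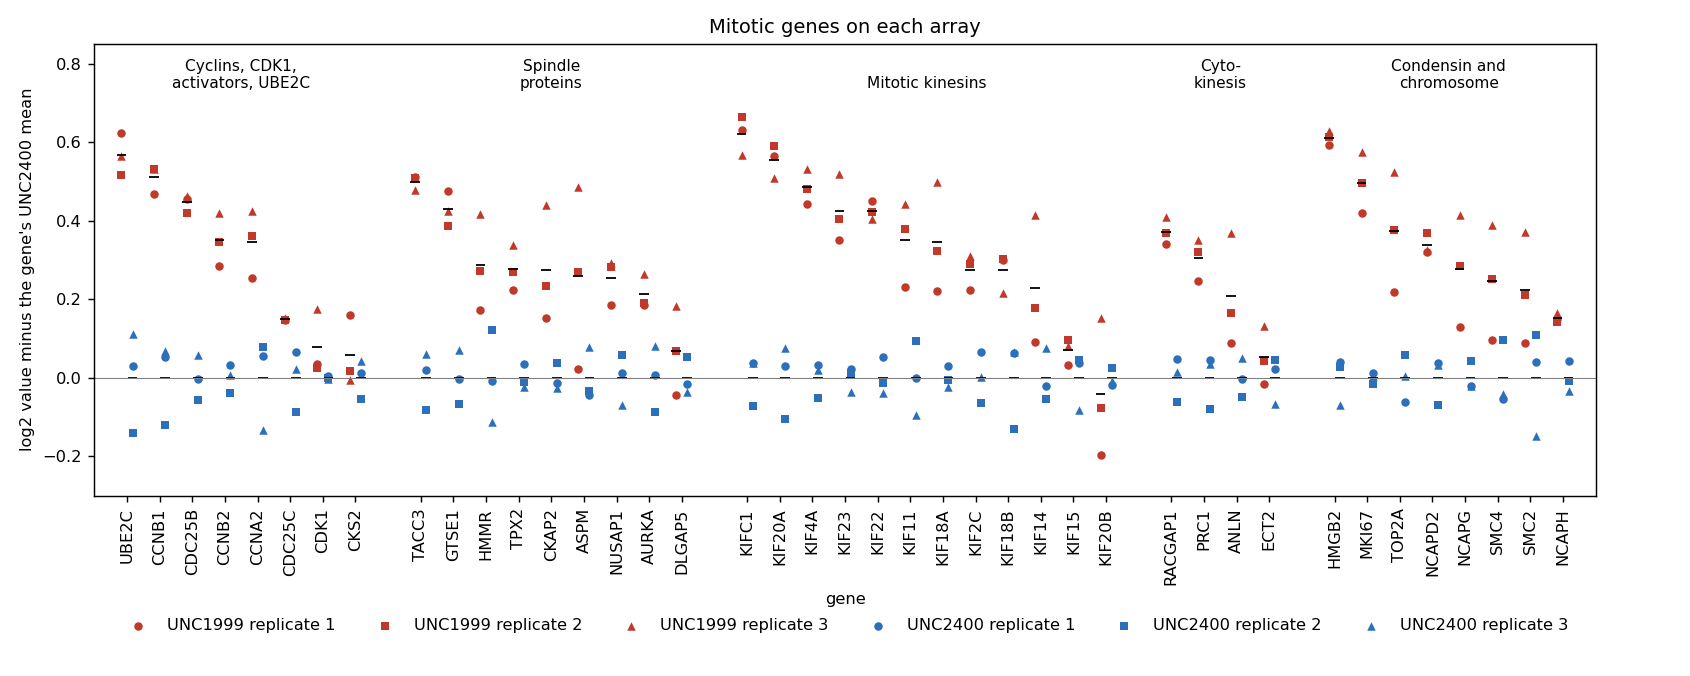
Log2 value of each of the 41 mitotic genes on each array, less the mean of that gene over the UNC2400 arrays, with genes along the horizontal axis in their role groups. Red symbols are the 3 UNC1999 arrays, blue symbols the 3 UNC2400 arrays, and short bars the group means; the symbols of the compounds do not overlap for 34 genes.

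Many of these promoters carry the sequences named above. The RefSeq promoter table (GRCh38.p14, from 250 bases before to 50 after the start) held 36 of the 41 genes, and where a gene had several starts the most upstream was used. The CHR was searched as TTTGAA or TTCGAA and the NF-Y box as CCAAT, each on both strands. A CHR match was found in 27 of the 36 promoters (75.0%), against 16.7% of all 27305 promoters of the same length, and within the last 60 bases before the start in 14 of 36 (38.9%), against 2.89% of all promoters. CCAAT was found in 26 of 36 (72.2%), against 35.7%, and at least 2 copies were found in 15 (41.7%), against 11.3%. The median match began 28 bases before the start for the CHR and 70 bases before it for CCAAT.

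The 14 genes with a CHR match within 60 bases before the start are shown. They place the same element close to the start in genes that passed the test and in genes that did not. Each line gives the 30 bases around the match on the strand of the gene, 5′ to 3′, with each match in capitals. HMMR and ANLN have 2, side by side, and MKI67 has another match farther from the start, outside its line. TTCAAA is TTTGAA read on the other strand. The first 9 belong to genes that rose and the last 5 to genes that did not pass the test. Not passing does not show that a gene differed from those that rose. HMMR (0.29) and NCAPG (0.28) had differences close to that of PRC1 (0.31), whereas ANLN (0.21), KIF15 (0.07) and CKS2 (0.06) had smaller ones.
MKI67 (chr10:128126435-128126464, minus strand): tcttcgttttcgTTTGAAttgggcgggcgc
KIF4A (chrX:70290058-70290087, plus strand): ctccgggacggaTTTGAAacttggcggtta
GTSE1 (chr22:46296832-46296861, plus strand): ctcggagcccttTTCAAAccgaccaatcgg
KIF23 (chr15:69414282-69414311, plus strand): ctgattggcccgTTTGAAatgcgccaggcg
KIF22 (chr16:29790712-29790741, plus strand): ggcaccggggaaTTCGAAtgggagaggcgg
KIF11 (chr10:92593090-92593119, plus strand): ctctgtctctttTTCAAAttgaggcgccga
CCNB2 (chr15:59105105-59105134, plus strand): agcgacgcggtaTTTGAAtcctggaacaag
KIF18A (chr11:28108157-28108186, minus strand): gctgaggaaagtggcttgggTTTGAAtatt
PRC1 (chr15:90994538-90994567, minus strand): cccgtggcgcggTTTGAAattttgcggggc
HMMR (chr5:163460598-163460627, plus strand): gggagaTTTGAATTTGAAaccggtagggag
NCAPG (chr4:17810932-17810961, plus strand): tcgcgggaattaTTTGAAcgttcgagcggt
ANLN (chr7:36389830-36389859, plus strand): ctgaaaTTCAAATTTGAAcggctgcagagg
KIF15 (chr3:44761747-44761776, plus strand): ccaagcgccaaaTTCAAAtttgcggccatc
CKS2 (chr9:89311154-89311183, plus strand): cgggctgtcggaTTCAAAtccggatcgttg

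Among the genes with a promoter in the table, a CHR match was found anywhere in the window in 14 of 21 that rose (66.7%) and in 13 of 15 that did not pass (86.7%), but within 60 bases before the start in 9 of 21 (42.9%) and in 5 of 15 (33.3%), the opposite order. CCAAT was found in 18 of 21 (85.7%) and in 8 of 15 (53.3%). These are descriptions of letters in a window, without a test, and the differences between these shares were not tested.

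**Figure D2:**
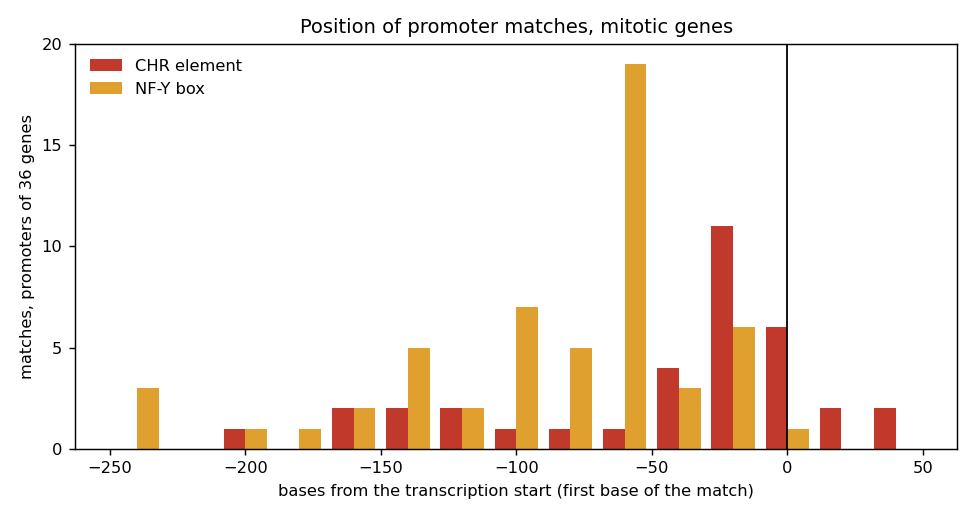
Number of CHR and NF-Y box matches in bins of 20 bases along the promoters of 36 mitotic genes, with distance from the transcription start in bases on the horizontal axis and the start at 0. The median CHR match begins 28 bases and the median NF-Y box 70 bases before the start.

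Among the cyclins, CDK1 and its activators, 5 of 8 genes rose and the median difference was 0.35. The largest difference was that of UBE2C, the ubiquitin-conjugating enzyme that works with the anaphase-promoting complex. Its values were 7.14, 7.03 and 7.08 with UNC1999, against 6.54, 6.38 and 6.63 with UNC2400, so that the lowest UNC1999 array was well above the highest UNC2400 array. The difference was 0.57 ± 0.07 (SE, n = 3 each), or 1.48-fold (limma, adjusted p = 0.00732). CCNB1 encodes cyclin B1, the partner with which CDK1 starts mitosis. It had 8.49, 8.55 and 8.56 with UNC1999 and 8.08, 7.90 and 8.09 with UNC2400, again without overlap, a difference of 0.51 ± 0.06 (limma, adjusted p = 0.00525). CDC25B, a phosphatase that removes the inhibitory phosphates from CDK1, had 7.35, 7.32 and 7.36 with UNC1999 and 6.89, 6.84 and 6.96 with UNC2400, which differ by 0.45 ± 0.03 (limma, adjusted p = 0.00189). Cyclin B2 (CCNB2, 0.35) and cyclin A2 (CCNA2, 0.35), which acts in S phase and G2, rose as well.

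The kinase itself did not pass. CDK1 had 6.97, 6.96 and 7.11 with UNC1999 and 6.94, 6.93 and 6.93 with UNC2400, a difference of 0.08 with a 95% interval from -0.03 to 0.18 (limma, adjusted p = 0.385). Its UNC1999 arrays were all above its UNC2400 arrays, though 2 of them only barely. The smallest difference in the group was that of CKS2, a small subunit of the CDK1 complex, with 9.40, 9.26 and 9.23 with UNC1999 and 9.25, 9.19 and 9.28 with UNC2400. These values overlap, and the difference was 0.06 with an interval from -0.07 to 0.18. CDC25C, the other CDK1 phosphatase of the list, differed by 0.15 (limma, adjusted p = 0.0889). Of the 5 rises in this group, that of CCNA2 did not pass with any of the arrays left out in turn (limma, adjusted p up to 0.132).

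Among the spindle pole and microtubule proteins, 4 of 9 rose and the median difference was 0.28. TACC3, which crosslinks spindle microtubules together with clathrin, had 7.60, 7.60 and 7.57 with UNC1999 and 7.11, 7.01 and 7.15 with UNC2400. The UNC1999 arrays lay within a narrow band far above the others, and the difference was 0.50 ± 0.04 (limma, adjusted p = 0.00221). GTSE1, a microtubule-binding protein of G2 and mitosis, had 6.91, 6.82 and 6.86 with UNC1999 and 6.43, 6.37 and 6.50 with UNC2400, a difference of 0.43 ± 0.04 (limma, adjusted p = 0.004). TPX2, the spindle protein that activates Aurora A, had 9.59, 9.64 and 9.70 with UNC1999 and 9.40, 9.36 and 9.34 with UNC2400, a difference of 0.28 ± 0.03 (limma, adjusted p = 0.00821). Aurora A itself (AURKA) had 8.02, 8.02 and 8.10 with UNC1999 and 7.84, 7.75 and 7.91 with UNC2400. Its arrays did not overlap, and it lay at the threshold with a difference of 0.21 (limma, adjusted p = 0.051). NUSAP1, which bundles spindle microtubules, rose by 0.25 (limma, adjusted p = 0.0238), but did not pass without UNC1999 replicate 2 or 3 or without UNC2400 replicate 1 or 3 (limma, adjusted p from 0.0561 to 0.096).

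HMMR (0.29), a spindle assembly factor, CKAP2 (0.28), a microtubule-associated protein, and ASPM (0.26), which binds microtubule minus ends at the spindle poles, did not pass. ASPM had 8.13, 8.37 and 8.59 with UNC1999 and 8.06, 8.07 and 8.18 with UNC2400, and its SD of 0.23 over the UNC1999 arrays was the largest of the 41 genes. The smallest difference was that of DLGAP5, which stabilises kinetochore fibres, with 8.69, 8.80 and 8.92 with UNC1999 and 8.72, 8.79 and 8.70 with UNC2400. Here the lowest UNC1999 array was below all 3 UNC2400 arrays, and the difference was 0.07 with an interval from -0.08 to 0.22.

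Of the 12 mitotic kinesins, 9 rose and the median difference was 0.35, but only 5 were called without UNC1999 replicate 2 or with the replicate number as a block. KIFC1 is a minus-end-directed motor that focuses spindle poles and clusters extra centrosomes. It had 7.98, 8.01 and 7.91 with UNC1999 and 7.38, 7.27 and 7.38 with UNC2400, the largest difference of the 41 genes at 0.62 ± 0.04 (1.54-fold; limma, adjusted p = 0.00157). KIF20A, which works with Aurora B at the central spindle, had 8.36, 8.39 and 8.30 with UNC1999 and 7.83, 7.69 and 7.87 with UNC2400, a difference of 0.55 ± 0.05 (limma, adjusted p = 0.00343). KIF4A, a motor that binds chromosome arms and the central spindle, had 7.64, 7.67 and 7.72 with UNC1999 and 7.22, 7.14 and 7.21 with UNC2400, a difference of 0.48 ± 0.03 (limma, adjusted p = 0.0017). In these 3 genes the lowest UNC1999 array exceeded the highest UNC2400 array by a wide margin relative to the spread within a group.

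The other rises among the kinesins were those of KIF23 (0.43), the motor subunit of centralspindlin, KIF22 (0.42), which pushes chromosome arms toward the equator, KIF11 (0.35), which pushes spindle poles apart, KIF18A (0.35) and KIF18B (0.27), which limit microtubule growth, and KIF2C (0.27), which depolymerises microtubules at kinetochores. Of these, 4 did not pass without UNC1999 replicate 2, namely KIF11 (limma, adjusted p = 0.129), KIF18A (0.113), KIF18B (0.161) and KIF2C (0.064). All 4 also missed the threshold without UNC2400 replicate 3, KIF11, KIF18A and KIF18B without UNC2400 replicate 1, KIF18A without UNC2400 replicate 2, KIF11 and KIF18B without UNC1999 replicate 3, and KIF18B without UNC1999 replicate 1 (limma, adjusted p from 0.0509 to 0.149). KIF14 (0.23), which acts in cytokinesis, and KIF15 (0.07), a motor that shares the pole-separating task of KIF11, did not pass. KIF20B, a relative of KIF20A with a role in abscission, was the gene with the negative estimate. It had 6.77, 6.89 and 7.12 with UNC1999 and 6.95, 6.99 and 6.96 with UNC2400, so the UNC1999 arrays lay on both sides of a tight UNC2400 group. The difference was -0.041 with an interval from -0.26 to 0.17 (limma, adjusted p = 0.865), and 0.037 without UNC1999 replicate 1.

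Of the cytokinesis proteins, 2 of 4 rose. RACGAP1, which with KIF23 forms centralspindlin, had 7.99, 8.02 and 8.06 with UNC1999 and 7.70, 7.59 and 7.67 with UNC2400, a difference of 0.37 ± 0.03 (limma, adjusted p = 0.00351). PRC1, which bundles the antiparallel microtubules of the central spindle, had 8.206, 8.279 and 8.309 with UNC1999 and 8.004, 7.879 and 7.993 with UNC2400, a difference of 0.31 ± 0.04 (limma, adjusted p = 0.0128, and 0.061 without UNC1999 replicate 2). Neither gene showed overlap between the compounds. ECT2, the exchange factor that activates RhoA at the division plane, had 7.18, 7.24 and 7.33 with UNC1999 and 7.22, 7.24 and 7.13 with UNC2400. These values overlap, and the difference was 0.05 with an interval from -0.07 to 0.17. Anillin (ANLN), a scaffold of the contractile ring, differed by 0.21 and did not pass (limma, adjusted p = 0.18).

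Of the condensin and chromosome proteins, 5 of 8 rose and the median difference was 0.31. HMGB2 is an abundant chromatin protein that bends DNA. It had 8.44, 8.46 and 8.47 with UNC1999 and 7.89, 7.87 and 7.78 with UNC2400, a difference of 0.61 ± 0.03 (1.53-fold; limma, adjusted p = 0.00104), the smallest adjusted p of the 41 genes. MKI67, the proliferation antigen Ki-67 that coats mitotic chromosomes, had 9.64, 9.72 and 9.80 with UNC1999 and 9.23, 9.21 and 9.22 with UNC2400, a difference of 0.50 ± 0.04 (limma, adjusted p = 0.00254). TOP2A, the topoisomerase that untangles sister chromatids, had 9.12, 9.28 and 9.42 with UNC1999 and 8.84, 8.96 and 8.90 with UNC2400, a difference of 0.37 ± 0.08 (limma, adjusted p = 0.0439). It did not pass without UNC1999 replicate 2 or any of the UNC2400 arrays (limma, adjusted p from 0.0813 to 0.141). All 3 were without overlap, and TOP2A had the widest spread of the 3 over its UNC1999 arrays.

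The 5 condensin I genes gave different answers in the test. NCAPD2, a regulatory subunit, rose by 0.34 (limma, adjusted p = 0.00467). NCAPH, the kleisin that closes the ring, rose by only 0.15, with 7.97, 7.96 and 7.98 with UNC1999 and 7.86, 7.81 and 7.79 with UNC2400 (limma, adjusted p = 0.0164, and 0.0532 to 0.0622 without UNC1999 replicate 1 or 2 or UNC2400 replicate 2). It was the smallest difference of this group and of the 25 genes that rose. NCAPG, the other regulatory subunit, differed by 0.28 (limma, adjusted p = 0.0801), and the ATPases SMC4 (0.25) and SMC2 (0.22), which condensin I shares with condensin II, did not pass either.

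**Figure D3:**
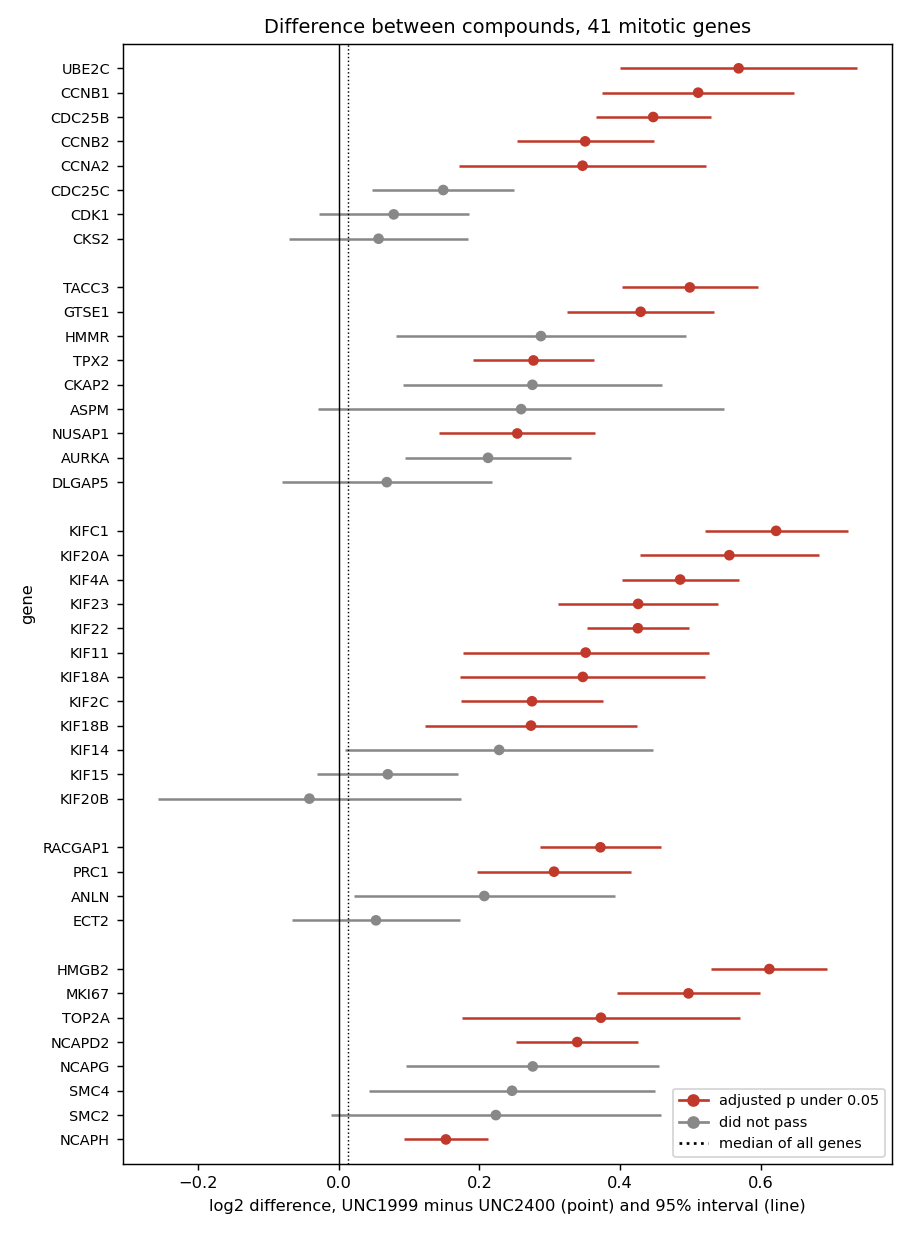
Log2 difference of each mitotic gene, UNC1999 minus UNC2400, on the horizontal axis (point) with its 95% interval from limma (line), in the same role groups. Red marks the 25 genes with an adjusted p under 0.05 and grey the other 16; the dotted line is the median of all genes, 0.01, and the estimates run from -0.04 for KIF20B to 0.62 for KIFC1.

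The 41 genes did not stand equally high on the 3 UNC1999 arrays. The median deviation of the 41 genes from their UNC2400 means was 0.22 on UNC1999 replicate 1, 0.30 on replicate 2 and 0.41 on replicate 3, and lay between -0.02 and 0.02 on the UNC2400 arrays. UNC1999 replicate 3 was the highest array of its group for 31 of the 41 genes, as it was for 34.5% of the 15352 genes brighter than the median probe set, and replicate 1 was the lowest for 29, as it was for 26.5% of those genes. Without UNC1999 replicate 3, 22 of the 41 genes were called higher and 21 of these were among the 25. What set this array apart was not tested.

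Close relatives were set against each other on the same arrays, as the value of the one minus that of the other. So were CCNB1 and CDK1, which are partners and not relatives. The 10 pairs were picked after their values were known, and with 3 arrays against 3 the two-sided exact permutation test cannot give a p below 0.1, or 0.125 after Benjamini-Hochberg adjustment over the 10 pairs. In 8 pairs the compounds did not overlap and p was this smallest value. Because of how the pairs were picked, this count is a description only, and the share among other gene pairs was not computed. The difference of KIF20A exceeded that of KIF20B by 0.60, that of CDC25B exceeded that of CDC25C by 0.30, that of CCNB1 exceeded that of CDK1 by 0.43 and that of CCNB2 by 0.16, and that of KIFC1 exceeded that of KIFC3, a related motor with other roles, by 0.56. KIF2C exceeded KIF2A, its relative of the kinesin-13 family, by 0.78, since KIF2A fell. KIF18A and KIF18B differed from each other by 0.07, with overlap (exact permutation p = 0.6, adjusted 0.6).

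Condensin I and condensin II share the SMC ATPases and differ in their other subunits. NCAPD2 exceeded NCAPD3 by 0.47 and NCAPG exceeded NCAPG2 by 0.36, both without overlap, whereas NCAPH and NCAPH2 differed by 0.05 with overlap (exact permutation p = 0.3, adjusted 0.333). Of the 3 condensin II subunits, NCAPD3 fell by 0.13 (limma, adjusted p = 0.0449), NCAPH2 rose by 0.10 (limma, adjusted p = 0.045) and NCAPG2 did not pass. NCAPD3 did not pass with any of the arrays left out (limma, adjusted p from 0.0559 to 0.145), and NCAPH2 passed only without UNC1999 replicate 3 (0.0961 to 0.145 in the other cases).

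The other genes of the pathway were taken from 8 lists chosen by role, of which 129 genes had a value. Of these, 33 rose (25.6%, where 9.16% of all genes were higher) and 12 fell (9.30%, close to the 7.32% of all genes that were lower). Without UNC1999 replicate 2 the counts were 13 and 6.

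Among 20 regulators of mitotic and E2F transcription, 4 rose and 2 fell (20% and 10%, against 9.16% and 7.32% of all genes). FOXM1, the activator of G2 and mitosis genes, had 7.81, 7.75 and 7.58 with UNC1999 and 7.42, 7.31 and 7.40 with UNC2400, a rise of 0.34 (limma, adjusted p = 0.033). The retinoblastoma gene RB1, a repressor of E2F genes, rose by 0.29 (limma, adjusted p = 0.0339), and E2F5, a repressor E2F of the DREAM complex, fell by 0.40 (limma, adjusted p = 0.00366). B-MYB (MYBL2), added after its value was seen, rose by 0.28 (limma, adjusted p = 0.0246). In this list 14 genes did not pass. Among them were LIN9, LIN37, LIN52, LIN54, RBBP4, RBL1 and RBL2, with differences from -0.14 to 0.09. E2F1 (0.14), E2F2 (0.28) and E2F3 (0.11) did not pass either. FOXM1 passed only without UNC1999 replicate 3 and RB1 only without UNC1999 replicate 1 (limma, adjusted p up to 0.124 in the other cases). MYBL2 did not pass without UNC1999 replicate 1 or 2 or UNC2400 replicate 2 or 3 (limma, adjusted p from 0.0598 to 0.0899), whereas E2F5 passed with each array left out.

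Of 17 other regulators of CDK1 and mitotic entry, 3 rose and 1 fell (17.6% and 5.88%, against 9.16% and 7.32% of all genes). PLK1, the mitotic kinase that activates CDC25 phosphatases, had 9.86, 9.84 and 9.85 with UNC1999 and 9.35, 9.28 and 9.47 with UNC2400, a rise of 0.48 (limma, adjusted p = 0.00471). WEE1, which inhibits CDK1, also rose, by 0.38 (limma, adjusted p = 0.0148, and 0.0656 without UNC1999 replicate 2 and 0.0552 without UNC2400 replicate 3). Cyclin H (CCNH), of the kinase that activates CDKs, fell by 0.36 (limma, adjusted p = 0.00905).

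Of 18 genes of the anaphase-promoting complex and its regulators, 3 rose and 2 fell (16.7% and 11.1%, against 9.16% and 7.32% of all genes). CDC20, its activator in metaphase, had 9.063, 9.020 and 8.994 with UNC1999 and 8.180, 8.001 and 8.287 with UNC2400, without overlap. The difference of 0.87, or 1.83-fold, was larger than that of any of the 41 genes (limma, adjusted p = 0.00264). FZR1, its activator in late mitosis and G1, rose by 0.50 (limma, adjusted p = 0.0068), and the subunit ANAPC15 rose by 0.48 (limma, adjusted p = 0.00247). The 2 falls were those of the subunits ANAPC1 and ANAPC13. ANAPC1 had a difference of -0.24 (limma, adjusted p = 0.0203, and up to 0.0862 with an array left out). ANAPC13 had a difference of -0.21 (limma, adjusted p = 0.00984).

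Of 28 kinesins with roles outside mitosis, 4 rose and 4 fell (14.3% each, against 9.16% and 7.32% of all genes), and the median difference was 0.02. The list also holds motors that act in mitosis, such as KIF2A. The median was 0.35 for the 12 mitotic kinesins, and this contrast between the lists was not tested. All 12 mitotic kinesins were brighter than the median probe set, as were only 22 of the 28, so the lists also differ in brightness. KIF21B had 7.21, 7.04 and 7.13 with UNC1999 and 8.39, 8.20 and 8.16 with UNC2400, a fall of 1.12 (limma, adjusted p = 0.00163). KIF2A fell by 0.51 (limma, adjusted p = 0.00891) and KIF1B, a motor for vesicles and mitochondria, fell by 0.46 (limma, adjusted p = 0.00262). The largest rises of the list, singled out after their values were seen, were those of KIF1C (0.34, limma, adjusted p = 0.00384) and KIF5A (0.32, limma, adjusted p = 0.00164). KIF5A was not far above the array median, with means of 5.31 with UNC1999 and 4.98 with UNC2400. KIF1C had means of 7.02 and 6.68.

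The tubulins, of which microtubules are made, and the list of late mitosis, contractile ring and abscission genes had no falls. Of 12 alpha and beta tubulins, 8 rose (66.7%, against 9.16% of all genes), with a median difference of 0.17. The largest were those of TUBB4B (0.46; limma, adjusted p = 0.0152, and 0.0594 and 0.0596 without UNC1999 replicates 1 and 2), TUBB2A (0.29; limma, adjusted p = 0.00731) and TUBA1A (0.19; limma, adjusted p = 0.0095), though tubulin paralogues are alike in sequence and their probes may share signal. Of the 13 genes in the other list, 7 rose (53.8%). Separase (ESPL1), the protease that cleaves cohesin at anaphase onset and no contractile ring protein, rose by 0.49 (limma, adjusted p = 0.00476). The midbody protein CEP55 rose by 0.46 (limma, adjusted p = 0.00343) and the non-muscle myosin heavy chain gene MYH9 by 0.36 (limma, adjusted p = 0.00305). Of 18 augmin, gamma-tubulin and centrosome genes, 3 rose and 2 fell (16.7% and 11.1%, against 9.16% and 7.32% of all genes). Both gamma-tubulins fell, TUBG2 by 0.46 (limma, adjusted p = 0.0124) and TUBG1 by 0.36 (limma, adjusted p = 0.0173), paralogues that are also alike in sequence. NUMA1, which organises the spindle poles, rose by 0.20 (limma, adjusted p = 0.0283). None of these 3 passed without UNC1999 replicate 2 (limma, adjusted p from 0.0591 to 0.0926). Without UNC2400 replicate 1 both gamma-tubulins, without UNC2400 replicate 3 TUBG1 and NUMA1, and without UNC1999 replicate 1 or 3 NUMA1 missed the threshold too (limma, adjusted p from 0.0524 to 0.099).

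**Figure D4:**
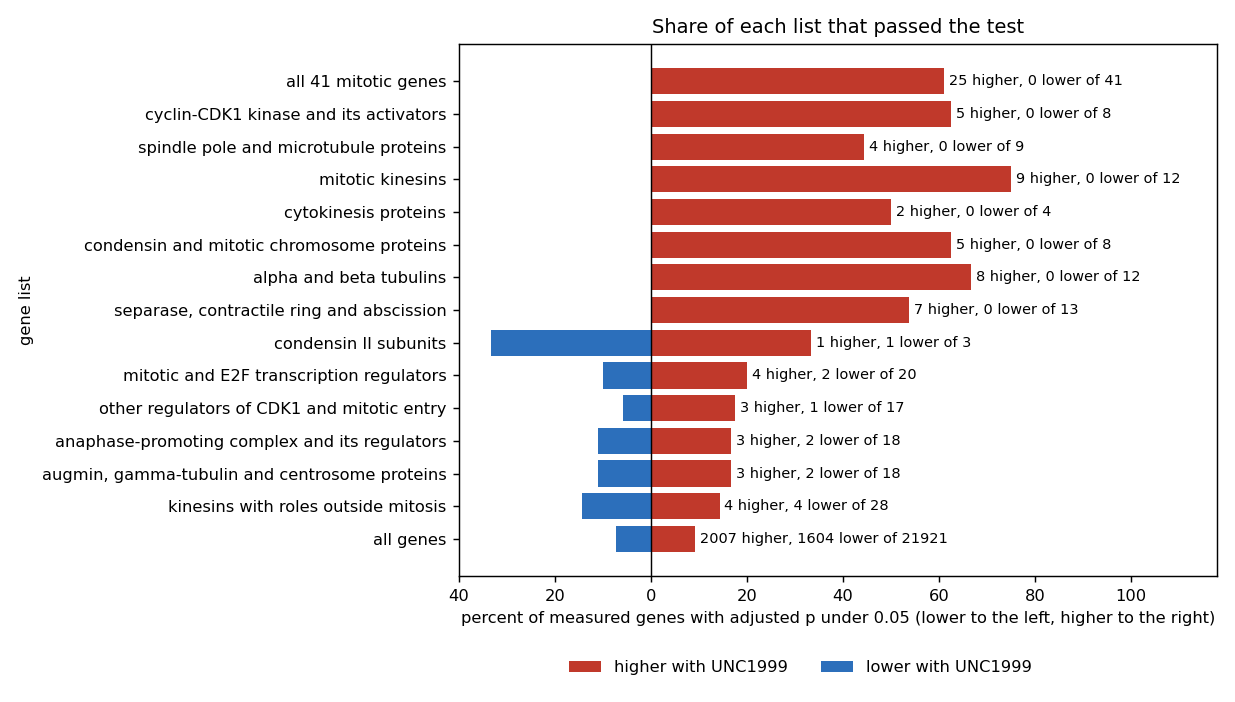
Percent of the measured genes of each list with an adjusted p under 0.05, to the right for genes higher with UNC1999 (red) and to the left for genes lower with UNC1999 (blue), with the counts beside each bar. The list labelled kinesins with roles outside mitosis also holds motors that act in mitosis, such as KIF2A. The 41 mitotic genes and their 5 role groups have rises only, as have the tubulins and the list of separase, contractile ring and abscission genes, whereas the other lists have both; 9.16% of all genes were higher and 7.32% lower.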

How the data were processed

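RNA of 6 cultures was hybridised to Affymetrix arrays of human transcripts. The authors deposited 1 table of log2 expression values, already summarised and normalised; the study names GeneSpring 13, while the normalisation method and the genome build of the array were not given in the sources used here. Of 65529 probe sets, 23129 carried exactly 1 gene symbol, and symbols were updated through RefSeq. A gene with several probe sets was represented by the one with the highest mean; KIFC1 has near-identical copies on alternative versions of chromosome 6. The table held 0 columns of other samples. Differences were tested with limma 3.58.1 in R 4.3.3 (lmFit and eBayes on all probe sets, group as the only term, two-sided, Benjamini-Hochberg, threshold 0.05), and the procedure was tested on simulated data. Arrays give no read depth, and 3 per group limit the precision. Replicate numbers are shared by the compounds, but no label pairs the cultures, and they were not treated as pairs. Deviations of equally numbered arrays correlated at 0.06, 0.08 and -0.01 over all probe sets. Dim probe sets are included, so these values cannot decide whether cultures were shared. The alternatives were a replicate block, each array left out, a filter on dim probe sets (33546 kept), quantile and cyclic loess normalisation, a trended robust variance, and the mean of all probe sets of a gene. The genes and lists were chosen with earlier results of these data known. Every one of the 41 genes is named. In each role group the 3 largest called differences and the smallest difference are given by array. In each other list up to 3 called genes with the largest differences are given. AURKA, ASPM, CDK1, MYBL2, KIF1C, KIF5A, ANAPC1 and ANAPC13 were added after their values were seen.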

Additional observations from a re-analysis of the deposited data

How the results depend on the processing

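Of the 41 mitotic genes, the number called higher was 25, and it was between 16 (without UNC1999 replicate 2) and 23 with an array left out; 0 were called lower in any of the alternatives run. The same 16 genes were called higher under each of those alternatives: CCNB1, CCNB2, CDC25B, UBE2C, TPX2, TACC3, GTSE1, KIF4A, KIF20A, KIF22, KIF23, KIFC1, RACGAP1, MKI67, HMGB2 and NCAPD2. The median difference of the 41 genes lay between 0.27 and 0.35 with an array left out and was 0.32 after quantile normalisation. The count was 29 without dim probe sets, 27 after quantile normalisation, 25 after cyclic loess and 24 with the trended variance. With the replicate number as a block, 19 of the 41 genes were called, of which 18 were among the 25, and the genes called in the 8 other lists numbered 28, against 45 without the block; the numbers are not known to pair the cultures. With an array left out, the genes called in those lists numbered 19 to 42 (19 and 24 when UNC1999 replicates 2 and 1 were dropped, 27 when UNC2400 replicate 3 was), all genes called 1790 to 3798 against 3611 (1790 and 2146 without UNC1999 replicates 2 and 1, 2247 without UNC2400 replicate 1), and genes past the thresholds of the study 1 to 3 against 2 (1 without UNC2400 replicate 2). KIF20B had differences from -0.14 to 0.037 with an array left out, positive only without UNC1999 replicate 1. The cause of these shifts was not tested. After cyclic loess the split of all genes called was 1855 higher and 1900 lower, against 2007 and 1604. The number of promoters with a CHR match was 21 of 36 when only bases before the start were searched, against 27. With 3 arrays per group, differences near 0.2 with a spread like that of ASPM could not be told from 0.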

Other observations

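A probe set shared by CIT, the citron kinase of the midbody, and the microRNA gene MIR1178 stands for no single gene and was left out of the lists. Its mean value was 7.73 with UNC1999 and 7.32 with UNC2400, a difference of 0.41 (limma, adjusted p = 0.00599). It was chosen after its value was seen.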
